A study of Mus musculus with 8 samples.

Results

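The Slc22 organic ion transporters of the proximal tubule were followed here as 9 genes, Slc22a2, Slc22a6, Slc22a7, Slc22a8, Slc22a12, Slc22a13, Slc22a19, Slc22a26 and Slc22a30. They were chosen by name from the 26 genes of the Slc22a family in the count tables, which list 22609 genes in all, and the choice was made on an earlier account of the same aged and young mice. RNA-Seq was performed on kidney cortex of 4 aged male C57BL6 mice (30 months) and 4 young male C57BL6 mice (5 months), all untreated, and the question was how the expression of these carriers differed between the ages. Levels are given as CPM, the read count of a gene relative to all counts on genes in the library after scaling by the trimmed mean of M values (TMM).

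Slc22 carriers move charged metabolites, drugs and toxins across the membranes of proximal tubule cells. Carriers on the blood side take organic anions and cations up into the cell, export pumps on the luminal side pass them into the urine, and luminal exchangers return urate and some other anions to the cell. Several rodent members are known to differ in level between the sexes and to respond to steroid and pituitary hormones.

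Most of the 9 genes lie in gene clusters (positions in mouse build mm9, exons, introns and UTRs included). On chromosome 19, Slc22a19 (7747551 to 7785800), Slc22a26 (7855531 to 7877157) and Slc22a30 (8409861 to 8479601) are on the minus strand, followed by Slc22a8 (8665744 to 8686324) and Slc22a6 (8692486 to 8702789) on the plus strand. Slc22a12 (6535845 to 6543019, minus strand) is on the same chromosome. Chromosome 17 carries Slc22a2 (12777055 to 12821331, plus strand) and Slc22a7 (46569134 to 46575426, minus strand), and chromosome 9 carries Slc22a13 (119102120 to 119118223, minus strand). Over the 36 pairs of members, aligned coding sequences were identical at 42.3% to 75.2% of positions, with a median of 48.8%. The closest pair was Slc22a19 and Slc22a30, followed by Slc22a19 and Slc22a26 at 74.6%, whereas the neighbours Slc22a6 and Slc22a8 were identical at 57.5%.

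The RefSeq promoter table (build GRCm38.p6) held 8 of the 9 members, all but Slc22a7, and the 250 bases before each start were searched on both strands. Of these, 2 promoters are shown because they belong to the neighbouring genes Slc22a19 and Slc22a26, which are called lower in aged mice below; capitals mark TTCNNNGAA, the palindrome that STAT factors and BCL6 can bind.
Slc22a19 promoter, chr19:7711311-7711560, minus strand: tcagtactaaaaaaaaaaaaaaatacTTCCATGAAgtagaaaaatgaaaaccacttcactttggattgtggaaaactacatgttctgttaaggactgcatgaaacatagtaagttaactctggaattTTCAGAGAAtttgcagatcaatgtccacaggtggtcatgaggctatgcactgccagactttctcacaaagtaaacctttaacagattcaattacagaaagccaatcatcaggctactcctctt
Slc22a26 promoter, chr19:7802668-7802917, minus strand: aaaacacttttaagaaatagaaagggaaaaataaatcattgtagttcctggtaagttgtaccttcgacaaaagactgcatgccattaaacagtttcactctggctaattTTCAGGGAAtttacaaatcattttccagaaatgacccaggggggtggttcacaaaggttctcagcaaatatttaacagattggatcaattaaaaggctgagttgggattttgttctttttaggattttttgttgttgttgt
The palindrome occurred at -224 and -123 from the start of Slc22a19 and at -141 from that of Slc22a26, in none of the other 6 promoters, and in 7.02% of all 32851 promoters. Letters around the matches at -123 and -141 are alike in these 2 related neighbours. They are therefore not independent cases, and no enrichment can be read from them. Letters for the HNF4 core CAAAGTCC (1.20% of all promoters), the D-box TTATGTAA (0.819%) and the E-box CACGTG (6.02%) were in none of the 8 windows. These matches describe letters only and say nothing of binding.

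The libraries held 14820804 to 19821429 counts on genes. Aged mouse 1 stood apart from the other mice on the first principal component, which carried 48.2% of the variance. Proximal tubule markers were abundant in every library, and none of the 14 was at 0. Their summed level was 18140 to 47140 CPM in aged and 49820 to 56710 CPM in young mice. It was lowest in aged mouse 1 and highest among the aged in aged mouse 4. Without Kap, an abundant androgen-responsive gene, the sums overlapped (17210 to 32840 and 29640 to 34310 CPM). Markers of S3, the last segment of the proximal tubule, summed to 1126 to 3762 CPM in aged and 4207 to 5755 CPM in young mice. The largest part of this sum in young mice was Atp11a, at 318 to 1733 CPM in aged and 2152 to 3332 CPM in young mice. In aged mice 1 to 3, but not in aged mouse 4, Slc3a1 was above Atp11a (531, 820 and 602 against 318, 608 and 370 CPM). For the S3 markers Slc7a13, Slc3a1 and Cyp7b1 the ages overlapped. No marker of any list passed the test for age by edgeR (adjusted p below 0.05 and fold above 1.5). Lower in every aged than in every young mouse were 2 of the 14 proximal tubule and 2 of the 5 S3 markers. So were 2 of 4 stroma markers (Col1a1 and Col3a1) and the endothelial Ehd3, and this held for 10% of all genes. The distal tubule marker Slc12a3 was higher in every aged mouse, as were 8.85% of all genes. Markers of the earlier segments S1 and S2 overlapped (5445 to 10070 CPM in aged, 8590 to 11050 CPM in young mice). Of everything tallied in a library, pairs aligned to several places included, 22.6% to 29.9% in aged and 19.95% to 25.1% in young mice was on no gene. The part of these differences in the values below was not tested, and in bulk tissue fewer cells of a type and less RNA per cell cannot be told apart.

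All 9 members passed the filter on low counts. Of them, 8 had a negative log2 fold change (aged over young), as had 6399 of the 13944 genes tested. The median was -1.02 over the members against 0.03 over all genes tested. Slc22a19 and Slc22a26, 2 of the 9, were called lower (0.889% of all genes were called lower) and none was called higher (1.17% of all genes). In 6 of 9, Slc22a2, Slc22a6, Slc22a7, Slc22a12, Slc22a19 and Slc22a26, all aged mice lay below all young mice, as they did for 10% of all genes. Because the members were chosen with this comparison in view, these counts describe them and are no test. Without aged mouse 1, the number called was again 2, without aged mouse 4 it was 6, and without any other 1 mouse it was 0 or 1.

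**Figure D1:**
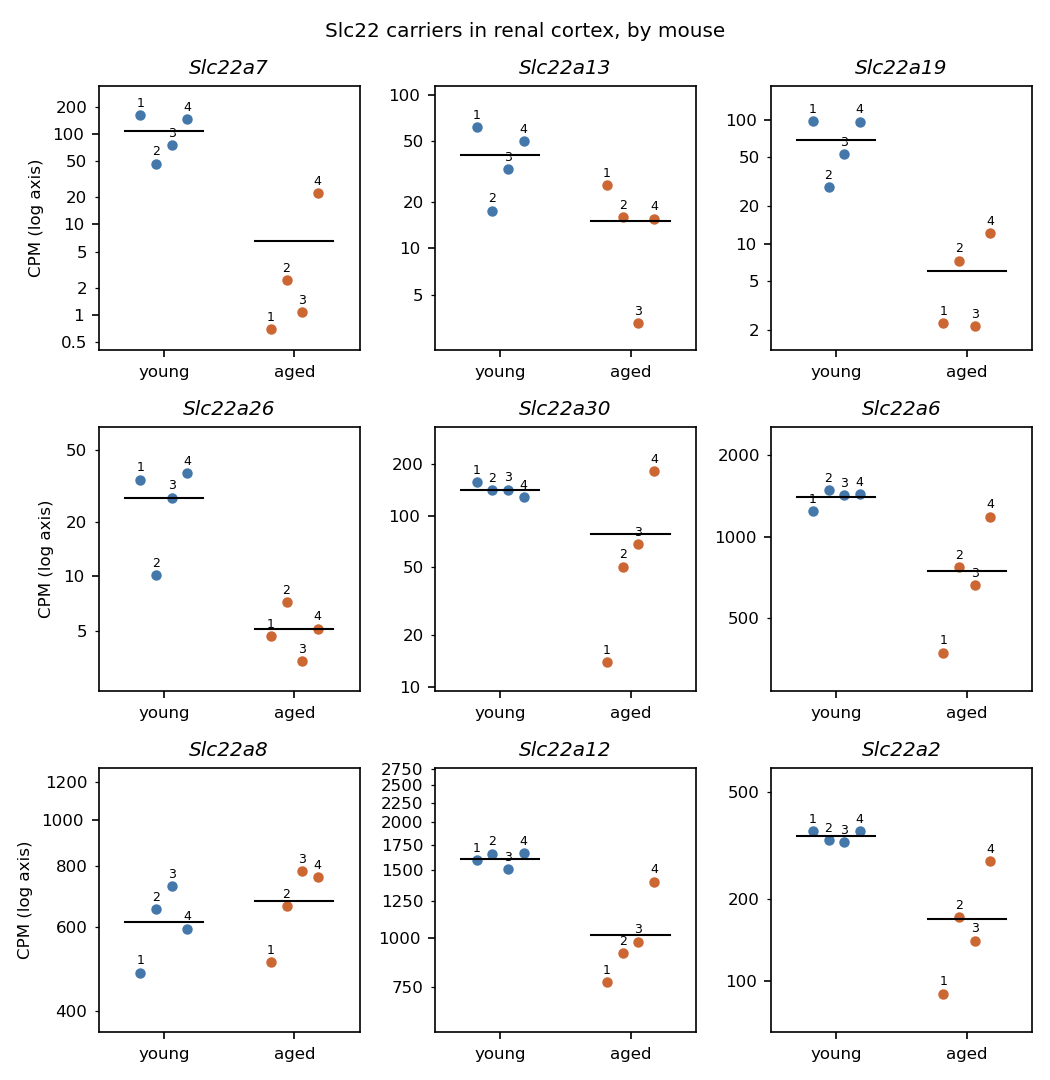
CPM of each member (log axis, a separate scale in each panel) in 4 young and 4 aged mice. Points are mice numbered within their age group and bars are group means. Slc22a7, with 47.0 CPM in the lowest young and 22.3 CPM in the highest aged mouse, has the largest ratio of group means. The ages overlap in Slc22a8, Slc22a13 and Slc22a30.

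Slc22a6 and Slc22a8 encode OAT1 and OAT3, the main carriers that take organic anions from blood into the tubule cell. Slc22a6 was at 372, 768, 661 and 1186 CPM in aged mice 1 to 4 and at 1241, 1484, 1424 and 1435 CPM in young mice 1 to 4. All aged values were below the lowest young value, but aged mouse 4 came close to it. The means were 747 ± 337 and 1396 ± 107 CPM (SD, n = 4), a log2 fold change of -0.90 ± 0.29 (SE). Slc22a8 was at 505, 661, 782 and 760 CPM in aged and at 481, 652, 728 and 594 CPM in young mice. The ages overlapped throughout for this carrier, with means of 677 ± 126 and 614 ± 104 CPM (SD, n = 4) and a log2 fold change of 0.14 ± 0.17 (SE).

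As these 2 genes lie 6161 bases apart on the same strand in mm9, their counts were also compared within each library, which needs no scaling between libraries. The Slc22a6 to Slc22a8 ratio of counts was 0.737, 1.16, 0.846 and 1.56 in aged mice and 2.58, 2.28, 1.96 and 2.42 in young mice. No aged ratio reached the lowest young ratio, and the means were 1.08 ± 0.370 and 2.31 ± 0.264 (SD, n = 4). On the log2 scale the ratio was lower in aged mice by a difference of -1.15. Both genes were chosen with the age comparison in view, so the ratio restates their values and is no test. It describes the 2 transcripts relative to each other, not which of them changed. For Slc22a30 and its near copy Slc22a28, the ratio was 1.97, 0.694, 1.07 and 1.47 in aged and 1.19, 0.913, 1.01 and 1.11 in young mice, and the ages overlapped.

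**Figure D2:**
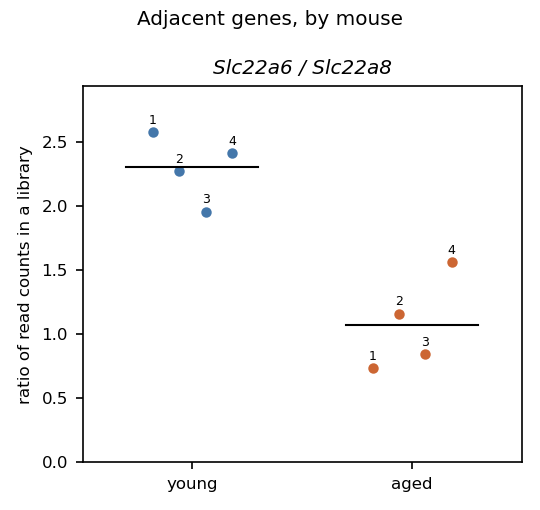
Ratio of read counts of the adjacent genes Slc22a6 and Slc22a8 within each library (linear axis from 0). Points are mice numbered within their age group and bars are means. Aged ratios lie at or below 1.56 and young ratios at or above 1.96.

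Slc22a7 encodes OAT2, a carrier of small organic anions and nucleotides. It had the largest ratio of group means of the 9, with 0.688, 2.41, 1.07 and 22.3 CPM in aged mice and 162, 47.0, 75.9 and 147 CPM in young mice. Aged mouse 1 had 14 counts of this gene and aged mouse 4 had 409. The means were 6.61 ± 10.5 and 108 ± 55.1 CPM (SD, n = 4), a ratio of young to aged means of 16.3. The log2 fold change was -4.02 ± 0.99 (SE), and it was -6.33 without aged mouse 4, whose value lay far above those of the other aged mice. Even with this mouse the ages did not overlap, yet Slc22a7 was not among the genes called.

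Slc22a19, Slc22a26 and Slc22a30 belong to the rodent group of organic anion carriers on chromosome 19. Slc22a19 (OAT5), a luminal carrier of sulfated steroids in the late proximal tubule, was at 2.26, 7.29, 2.14 and 12.2 CPM in aged and at 98.0, 28.6, 53.0 and 97.3 CPM in young mice. The highest aged value was below the lowest young one. The means, 5.96 ± 4.77 and 69.2 ± 34.3 CPM (SD, n = 4), stood in a ratio of young to aged of 11.6, and the log2 fold change was -3.55 ± 0.62 (SE).

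Slc22a26, whose substrates are less well known, was at 4.67, 7.16, 3.37 and 5.12 CPM in aged and at 34.4, 10.2, 27.3 and 37.3 CPM in young mice. Its aged mice were close together, and young mouse 2 was nearest to them. The log2 fold change was -2.43 ± 0.40 (SE), with means of 5.08 ± 1.57 and 27.3 ± 12.2 CPM (SD, n = 4). Slc22a30 differed from these 2 genes in that aged mouse 4 was the highest of all mice. Its levels were 13.9, 50.3, 68.3 and 182 CPM in aged and 157, 141, 142 and 129 CPM in young mice. The log2 fold change of -0.86 ± 0.59 (SE) became -1.69 without aged mouse 4 and -0.51 without aged mouse 1. Of the 100-base windows of the Slc22a30 transcript, 32.9% were also in Slc22a28, and pairs that aligned to several places were not counted, so the levels of both genes are uncertain.

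Slc22a12 and Slc22a13 serve urate handling. Slc22a12 encodes URAT1, the luminal exchanger that returns urate to the tubule cell, and was at 770, 915, 981 and 1404 CPM in aged and at 1594, 1660, 1513 and 1664 CPM in young mice. The young mice were within a narrow range and all aged mice were below it, by little in aged mouse 4. Its means were 1018 ± 272 and 1608 ± 71.0 CPM (SD, n = 4), and its log2 fold change was -0.66 ± 0.18 (SE) after TMM scaling. As a difference of mean log2 CPM it was -0.69, and this turned to 0.04 when libraries were scaled to the summed proximal tubule markers and was -0.42 with Kap left out of the sum. Slc22a13 encodes OAT10, a luminal exchanger of nicotinate and urate, and was at 25.8, 16.1, 3.26 and 15.6 CPM in aged and at 61.9, 17.6, 33.1 and 50.2 CPM in young mice. The ages overlapped, because aged mouse 1 was above young mouse 2. The log2 fold change was -1.42 ± 0.55 (SE), and 27.6% of the windows of this transcript were shared with Slc22a13b.

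Slc22a2 encodes OCT2, the carrier that takes organic cations such as creatinine and metformin up from blood. It was at 89.5, 172, 141 and 277 CPM in aged and at 358, 331, 326 and 358 CPM in young mice. As for Slc22a6 and Slc22a12, the young mice were close together and the aged mice spread below them. The means were 170 ± 79.0 and 343 ± 16.9 CPM (SD, n = 4), and the log2 fold change was -1.02 ± 0.29 (SE).

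The summed 14 proximal tubule markers were lower in aged mice by a log2 difference of -0.74, and by -0.27 without Kap. Dividing each library by this sum raises the difference of mean log2 CPM of every gene by that amount. These differences of means are not the edgeR fit and are given before, after, and after scaling without Kap. For Slc22a7 they were -5.26, -4.52 and -4.98, for Slc22a19 -3.76, -3.02 and -3.49, and for Slc22a26 -2.32, -1.58 and -2.05. For Slc22a2 they were -1.13, -0.40 and -0.86, for Slc22a6 -1.02, -0.28 and -0.74, and for Slc22a12 -0.69, 0.04 and -0.42. Because every gene shifts by the same amount, the order of the genes cannot change, and this scaling is no test of single genes. Slc22a13 (-1.60, -0.87 and -1.33), Slc22a30 (-1.39, -0.65 and -1.11) and Slc22a8 (0.14, 0.88 and 0.41) kept their signs. Every member had the same sign of change in all 16 refits with other scaling, filters, tools or mice. The marker scaling, under which Slc22a12 changed sign, is not among these refits.

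The members differed in how they varied among mice of 1 age. The SD of log2 CPM within age was 0.26 for Slc22a12, 0.27 for Slc22a8, 0.48 for Slc22a2 and 0.49 for Slc22a6, against 1.05 for Slc22a19, 1.07 for Slc22a13, 1.08 for Slc22a30 and 1.63 for Slc22a7. Young mouse 2 was the lowest young mouse in 4 members, Slc22a7, Slc22a13, Slc22a19 and Slc22a26, with log2 deviations from the young mean of -1.03, -1.05, -1.10 and -1.26. In the same mouse Slc22a2, Slc22a6 and Slc22a12 were within 0.1 of the young mean. Aged mouse 1 was the lowest aged mouse in 6 members and aged mouse 4 the highest in 6. Slc22a13 went against this order, since aged mouse 1 was its highest aged mouse and aged mouse 3 its lowest. Slc22a19 and Slc22a26 were also lowest in aged mouse 3.

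**Figure D3:**
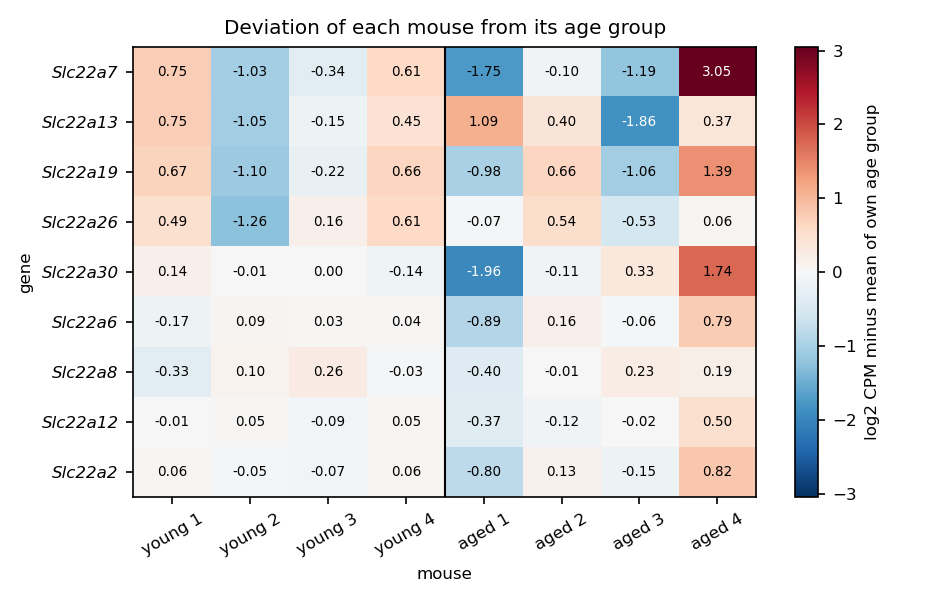
Log2 CPM of each member minus the mean of the mouse's own age group (rows, genes; columns, mice; blue, below the mean; red, above it). Young mouse 2 is blue in Slc22a7, Slc22a13, Slc22a19 and Slc22a26, and in Slc22a7 the aged mice run from -1.75 in mouse 1 to 3.05 in mouse 4.

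Levels between genes were compared as CPM per kilobase of the longest coding transcript. In young mice Slc22a12 was highest at 727, followed by Slc22a6 (347), Slc22a8 (177), Slc22a2 (162), Slc22a30 (63.1), Slc22a7 (53.7), Slc22a19 (34.7), Slc22a13 (20.6) and Slc22a26 (13.6). Ranges over the young mice did not overlap between Slc22a12 and Slc22a6, Slc22a6 and Slc22a8, or Slc22a2 and Slc22a30, and overlapped between all other neighbours in this order. In aged mice Slc22a12 was again highest at 460 CPM per kilobase. Slc22a8 (195) and Slc22a6 (186) came next with overlapping ranges, then Slc22a2 (80.2), Slc22a30 (34.9), Slc22a13 (7.68), Slc22a7 (3.29), Slc22a19 (2.98) and Slc22a26 (2.53). Slc22a7 was in the sixth place in young and the seventh in aged mice, and its aged mean rested on aged mouse 4, without which it was 0.692 CPM per kilobase and the lowest of the 9. The ranges of these last 4 genes overlapped in aged mice, between 0.343 CPM per kilobase in the lowest Slc22a7 and 13.1 in the highest Slc22a13 sample.

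Of the other 17 Slc22a genes, 13 were tested and none was called by edgeR in either direction, although 1 had an unadjusted p below 0.05 and 1 was called by DESeq2. In all 13 the ages overlapped, and the median log2 fold change was -0.07. Slc22a16 and Slc22a20 had no counts, and Slc22a14 and Slc22a27 were below the filter. These genes are what the choice of members left over and are no independent comparison.

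The carnitine carrier Slc22a5 was at 276 ± 39.7 CPM in aged and 282 ± 32.3 CPM in young mice (SD, n = 4), and the ages overlapped. Slc22a18 (331 ± 97.9 and 407 ± 19.1 CPM), Slc22a23 (166 ± 32.2 and 190 ± 10.1 CPM), Slc22a4 (44.1 ± 11.2 and 55.3 ± 4.21 CPM) and Slc22a17 (24.9 ± 8.82 and 26.1 ± 1.33 CPM) had overlapping ages as well (SD, n = 4). By the ratio of the highest to the lowest mouse, Slc22a28 and Slc22a22 spread most among aged mice. They ran from 7.07 to 123 and from 18.2 to 177 CPM, against 116 to 154 and 131 to 157 CPM in young mice. Low in all mice were Slc22a15 (4.77 ± 2.56 and 3.39 ± 0.685 CPM), Slc22a21 (6.27 ± 4.39 and 3.46 ± 0.689 CPM) and Slc22a3 (1.55 ± 1.01 and 0.806 ± 0.225 CPM). Slc22a29, at 3.00 to 18.3 CPM in aged and 1.65 to 4.15 CPM in young mice, had the largest positive log2 fold change of the family, 1.88 ± 0.63 (SE), and is the gene with the unadjusted p below 0.05.

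**Figure D4:**
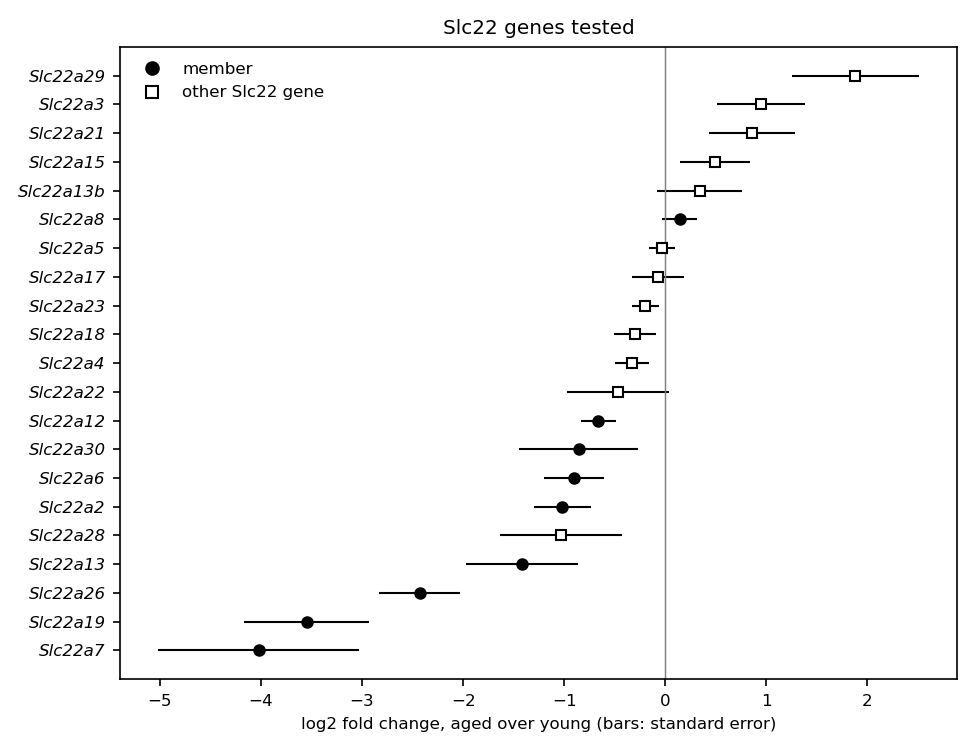
Log2 fold change, aged over young, with its SE for Slc22 genes tested (filled circles, members; open squares, other Slc22 genes; TMM scaling). Members run from -4.02 for Slc22a7 to 0.14 for Slc22a8, and Slc22a12 is at -0.66, while its difference of mean log2 CPM, -0.69, turns to 0.04 when scaled to proximal tubule markers.

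The genes that work with these carriers were taken from 3 lists and tested in the fit across all genes with edgeR's quasi-likelihood test and Benjamini-Hochberg adjustment. All 3 lists were written with earlier results of these data known. Their counts and adjusted p-values therefore describe these genes and are no independent test. Of the 13 secretion partners, 3 were called higher (1.17% of all genes) and 0 lower (0.889% of all genes), and the median log2 fold change was -0.11. In 4 of 13 all aged mice were above all young mice, which held for 8.85% of all genes. The 3 called are luminal export pumps, Abcc4 (MRP4, organic anions) and the P-glycoproteins Abcb1a and Abcb1b.

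Abcc4 was at 458, 257, 294 and 169 CPM in aged and at 84.1, 91.6, 101 and 98.8 CPM in young mice, a log2 fold change of 1.65 ± 0.26 (SE, adjusted p = 0.0255). Every aged mouse was above every young mouse, with aged mouse 1 highest and aged mouse 4 lowest, the reverse of their places in Slc22a2, Slc22a6, Slc22a7, Slc22a12 and Slc22a30. Abcb1b was also highest in aged mouse 1 and lowest in aged mouse 4, with 66.9, 35.9, 34.5 and 20.4 CPM in aged and 10.4 to 11.9 CPM in young mice (log2 fold change 1.82 ± 0.31, adjusted p = 0.0311). Abcb1a was at 22.4, 23.6, 21.1 and 19.5 CPM in aged and at 7.64 to 11.6 CPM in young mice (log2 fold change 1.22 ± 0.14, adjusted p = 0.0120). Over 16 refits the adjusted p of Abcc4 ranged from 9.84e-08 to 0.102, that of Abcb1b from 1.06e-06 to 0.105 and that of Abcb1a from 4.31e-12 to 0.0594. The calls were lost in 6, 7 and 2 of them, for Abcc4 and Abcb1b without aged mouse 3, without any 1 young mouse or with a replicate block (Abcb1b also without aged mouse 2), and for Abcb1a without young mouse 1 or 4.

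The 3 most abundant partners were not called. The dicarboxylate carrier Slc13a3, which feeds the exchange of OAT1 and OAT3, was at 863 ± 176 and 933 ± 74.8 CPM (SD, n = 4). The export pump Abcc2 was at 803 ± 63.0 and 707 ± 24.7 CPM (SD, n = 4), with all aged above all young mice, and the cation exporter Slc47a1 (MATE1) was at 641 ± 155 and 808 ± 58.7 CPM (SD, n = 4). Slco1a1, an organic anion carrier named after its values were seen, was at 3.00, 8.07, 17.0 and 215 CPM in aged and at 561, 718, 257 and 457 CPM in young mice. As in Slc22a7, aged mouse 4 was far above the other aged mice and the ages did not overlap, and the adjusted p by edgeR was 0.150. Without aged mouse 4 Slco1a1 was called, with a log2 fold change of -5.74.

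**Figure D5:**
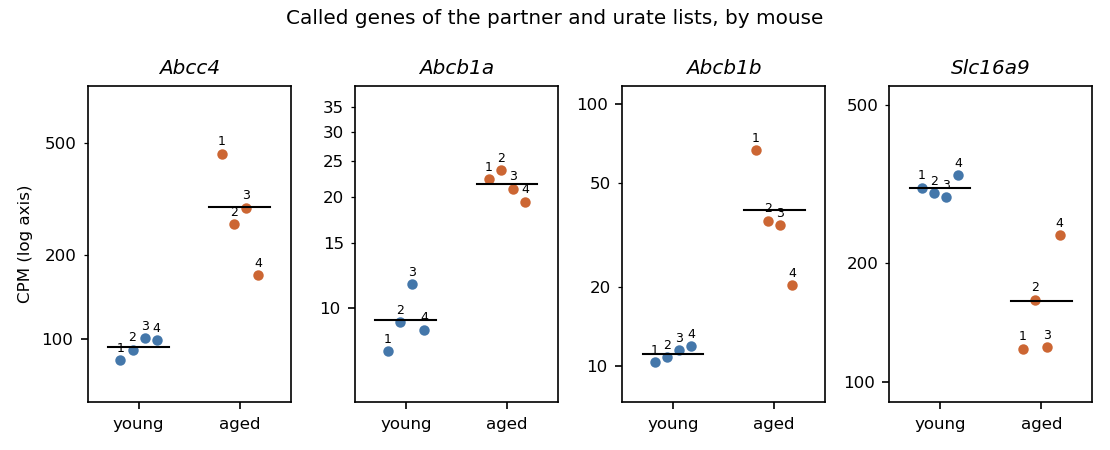
CPM (log axis, a separate scale in each panel) of 4 called genes of the partner and urate lists in 4 young and 4 aged mice, numbered within their age group, with group means as bars. The ages do not overlap in any panel. Abcc4 and Abcb1b are highest in aged mouse 1 (458 and 66.9 CPM) and, among aged mice, lowest in aged mouse 4.

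Of 9 urate handling genes 8 were tested, 1 was called lower (0.889% of all genes) and 0 higher (1.17%), and the median log2 fold change was -0.02. The gene called was Slc16a9, a monocarboxylate carrier of the tubule, at 121, 161, 122 and 235 CPM in aged and at 309, 300, 293 and 332 CPM in young mice. Its aged values were all below the young ones (log2 fold change -0.95 ± 0.20, adjusted p = 0.0460), and the call was lost in 6 of 16 refits, those without aged mouse 2 or 3 or any 1 young mouse (adjusted p up to 0.132). Pdzk1, the scaffold that holds URAT1 and its partners at the luminal membrane, was at 703 ± 296 and 1159 ± 27.4 CPM (SD, n = 4) and was not called (adjusted p = 0.189), although the ages did not overlap. The lactate carrier Slc5a12 (807 ± 283 and 479 ± 92.0 CPM) and the urate exporter Slc17a1 (553 ± 148 and 700 ± 61.5 CPM) were not called either (SD, n = 4), but Slc5a12 was called without aged mouse 1 (log2 fold change 0.96). In all, 3 of these 8 genes had all aged below all young mice (10% of all genes) and 2 had all aged above (8.85% of all genes).

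Of 16 regulators 15 were tested, 1 was called lower (0.889% of all genes) and 0 higher (1.17%), and the median log2 fold change was -0.05. Hnf4a, which drives many proximal tubule carriers, was at 1079 ± 176 and 1227 ± 87.2 CPM (SD, n = 4, adjusted p = 0.401). Ghr, the growth hormone receptor, was at 539 ± 264 and 1097 ± 163 CPM (SD, n = 4), with no overlap of the ages and an adjusted p of 0.0890. It was called without aged mouse 4 (log2 fold change -1.41).

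Bcl6 and Stat5b, named after their values were seen because STAT factors and BCL6 can bind the letters TTCNNNGAA, were not called. Binding at the Slc22a19 and Slc22a26 promoters was not tested. Bcl6, a repressor, was at 22.9, 50.2, 26.3 and 25.6 CPM in aged and at 201, 131, 24.8 and 138 CPM in young mice, with young mouse 3 among the aged mice (log2 fold change -1.99 ± 0.54, adjusted p = 0.0742). It was called without young mouse 3 (log2 fold change -2.33). Stat5b, which carries growth hormone and prolactin signals, was at 64.6 ± 6.89 and 66.9 ± 2.00 CPM (SD, n = 4, adjusted p = 0.745).

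For each member the 2 genes closest to it among mice of the same age were sought over 11131 genes of at least 5 CPM, by Pearson's r of log2 CPM deviations over 8 mice. These values come from the best of many candidates and share libraries and depth, so they are descriptions. Slc22a7 was closest to Gclm and Mpv17l (r = 0.99 for both, and 0.97 for both without the 2 farthest mice). Slc22a6 was closest to Clybl (r = 0.998) and Ptpra (0.993), at 0.96 for both without the farthest mice, and Slc22a2 to Uba7 (0.996) and Arhgef19 (0.994), at 0.91 for both. Slc22a12 was closest to Fars2 and Pzp (0.99 for both, falling to 0.98 and 0.90).

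Slc22a8 was closest to Ift140 and Fastk (r = 0.97 for both, 0.93 and 0.90 without the farthest mice). Slc22a13 was closest to the vitamin C carrier Slc23a1 and the organic anion carrier Slco4c1 (0.99 for both, 0.97 and 0.95). Slc22a19 was closest to Nab1 and Csf1r (0.98 for both, 0.97 and 0.96), and Slc22a26 to Rell1 and Ankrd56 (0.97 for both, 0.86 and 0.77). Slc22a30 was closest to Slc17a3 and Ppt1 (0.99 for both), but this rested on aged mice 1 and 4, without which r was 0.40 and 0.30. Spearman's rho was 0.619 for both genes closest to Slc22a30 and between 0.905 and 1 for the other 16. Slc17a3, a urate carrier of the luminal membrane, was at 346 ± 203 and 821 ± 21.0 CPM (SD, n = 4), and Slco4c1 at 7.26 ± 5.08 and 18.6 ± 9.43 CPM (SD, n = 4), and neither was called, but Slc17a3 was called without aged mouse 1 or 4 (log2 fold changes -0.97 and -1.68).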

How the data were processed

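RNA was extracted from kidney cortex of 4 aged and 4 young mice, and ribosome-depleted stranded libraries were sequenced. The authors deposited raw read counts per gene for each library, made with CASAVA 1.8.2, TopHat2, SAMtools and HTSeq on mm9 with RefSeq genes and with strand. Read pairs without a gene (22.6% to 29.9% in aged and 19.95% to 25.1% in young mice) were left out. Those aligned to several places (34.3% to 37.2% in aged and 36.5% to 39.1% in young mice) were left out as well. Both are shares of everything tallied in a library, these classes included. Ages are those of the labels, and the study's methods give a somewhat higher mean age for the aged mice. The joint table repeats these counts in 8 columns and was not used.

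Counts were scaled by TMM and fitted with edgeR 4.0.16 (filterByExpr, quasi-likelihood, all 8 libraries, R 4.3.3). A gene was called at Benjamini-Hochberg adjusted p below 0.05 over all genes tested and fold above 1.5, thresholds of the study, whose further FPKM criterion was not applied. Alternatives used DESeq2 1.42.0, limma-voom 3.58.1, other scalings and filters, a replicate block, and 7 of the 8 libraries. No 2 libraries agreed within sampling noise (chi-square per gene at least 9.43). The code was tested on simulated data. Coding sequences were aligned with MAFFT 7.526.

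The members and the gene lists were chosen with earlier results of these data known. Members are therefore described without p-values, and the p-values of listed genes are no independent test. Named genes were all members, other Slc22a genes that were called or above 1 CPM, called genes and the 3 most abundant genes of each list, and 2 genes closest to each member. Results for a few listed genes and sequence motifs are not reported here.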

Additional observations from a re-analysis of the deposited data

Results flagged for a closer look

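In each age group of 4 mice, the gap between the highest or lowest mouse and its nearest neighbour was divided by the range of the group, and values above 0.829 were taken as outlying. Covered were all members, the other Slc22 genes above 1 CPM, and the called and 3 most abundant genes of each list. Other genes named above, Slco1a1 and Bcl6 among them, were not scanned. Of 68 groups, 6 passed, and 3.4 were expected by chance. Slc22a7 in aged mouse 4 was the highest of the aged mice with a gap of 0.920 of the range. Aged mouse 1, which stood apart over all genes, was lowest in Slc22a17 (0.875) and Slc22a18 (0.909) and highest in Slc22a3 (0.843). Young mouse 1 was lowest in Slc22a23 (0.891) and Slc22a5 (0.918).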

How the results depend on the processing

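In the age comparison 287 genes were called. The number was 488 with library size only, 873 with DESeq2, 483 with limma-voom, 130 with a replicate block and 8 to 733 when 1 mouse was left out, lowest without young mouse 1 and highest without aged mouse 4. With library size only, the median log2 fold change rose by 0.11 and 75.4% of calls were higher in aged mice, against 56.8% with TMM. The 2 members called became 6 with DESeq2, 5 with limma-voom, 1 with the replicate block, and 0 to 6 when 1 mouse was left out. Of the other Slc22 genes, 0 were called, and 1 with DESeq2. The 5 called partner, urate and regulator genes became 11 with DESeq2, 10 with limma-voom, 3 with the block, and 0 to 11 when 1 mouse was left out. With the block, adjusted p was 0.0506 for Abcc4 and 0.0507 for Abcb1b. The labels name no pairing of mice with the same number. Correlations of their deviations were 0.21, 0.04, 0.20 and -0.03, which can neither show nor exclude a shared batch, as differently numbered mice were not compared. With DESeq2, Slc17a3, Slc5a12, Bcl6 and Ghr were also called. Abcc4, Abcb1a, Abcb1b, Slc16a9, Slc22a19 and Slc22a26 kept their sign in all 16 refits. Slc22a17 kept its sign in 13 and Slc22a5 in 12 of 16 refits, and the difference of mean log2 CPM of Slc22a12 turned from -0.69 to 0.04 on proximal tubule marker scaling. The scaling without Kap was chosen after seeing the data. The causes of these changes were not tested. Depth limits the lowest member value, Slc22a7 in aged mouse 1, which rests on 14 counts.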
